A study of Mus musculus with 7 samples.

Results

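The 47 genes described here encode Polycomb proteins, histone demethylases, histone deacetylases, sirtuins, acetyltransferases, enzymes that write or oxidise DNA methylation, and the poly(ADP-ribose) polymerase Parp1. The rule that picks them goes by name and enzyme class, among 37074 gene names on the array, and uses no signal, though earlier results of these data were known when the set was drawn up. Where a gene had several non-control probes, the one brightest on average across the 7 arrays stood for it. All 47 had a probe, and on each of the 7 arrays each of these chosen probes was well above background.

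Messenger RNA was measured in adult female mouse hearts on 1-colour Agilent arrays, with 3 wild type and 4 knockout samples by their labels. The design text speaks of 4 wild type and 4 control samples, which does not match these groups. Knockout samples, labelled Tg, are described as a double knockout of Brg1 (gene Smarca4) and Brm (gene Smarca2), the alternative ATPase motors of SWI/SNF chromatin remodelling complexes, and wild type samples were labelled NTg. Tamoxifen was given to both groups. Per the design text, it deleted Brg1 in adult cardiomyocytes through a Cre recombinase under a myosin heavy chain promoter (MHC Cre-ERT), in animals already null for Brm, so other heart cells are not a stated target of the Brg1 deletion. The sources used here do not say whether wild type animals carried Brm. No label ties a sample to its own animal, and the p-values then measure the spread between these samples alone, which may be technical. Cardiomyocytes are the labelled cell type, but a tissue kit was used to extract the RNA from heart, and markers of fibroblasts, blood vessels and macrophages were measured in both groups. In such bulk samples, fewer cells of a type and less RNA per cell cannot be told apart.

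Polycomb repressive complex 2 (PRC2) methylates a lysine of histone H3, and Polycomb repressive complex 1 (PRC1) reads that mark through chromobox proteins and ubiquitinates histone H2A. Together they keep developmental genes silent, and SWI/SNF remodellers are known to oppose them. Deacetylases remove acetyl groups that acetyltransferases place on histones and other proteins, and in heart muscle the class IIa deacetylases hold back MEF2 transcription factors. Brg1 is known to act with deacetylases and Parp1 at myosin heavy chain promoters of the stressed heart.

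Signals are given relative to the array's 75th percentile, so a relative signal of 1 equals that percentile. Arrays are listed in the order Wild Type_181, Wild Type_183 and Wild Type_189, then Mutant_175, Mutant_182, Mutant_187 and Mutant_188. Differences are log2 values, knockout minus wild type, with the standard error (SE) and a limma p-value adjusted over the 22832 genes tested, and a gene rose or fell only where that p was under 0.05. Smarca4 fell in all 4 knockout arrays, from 34.7, 32.8 and 34.2 to 5.87, 10.3, 14.9 and 8.25 (log2 difference -1.87, SE 0.29, adjusted p = 0.0021). Smarca2, at 1.82 to 2.04 in wild type and 1.89 to 2.21 in knockout, had a log2 difference of 0.08 (SE 0.11, adjusted p = 0.59), so its probe shows no loss in the arrays labelled knockout. The sources used here do not say which exons were deleted, so a probe may lie outside the deleted part and then checks nothing. All arrays lay on 1 slide, with the wild type arrays in row 1 and the knockout arrays in row 2, so position and group cannot be told apart. The 75th percentile itself was 630 to 713 in wild type and 837 to 1147 in knockout arrays. Scaled to 7 spike-in probes instead, the median log2 difference over all genes tested moved from -0.12 to 0.45, so each direction below is relative to the 75th percentile.

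Of the 47 members, 5 rose, 13 fell and 29 did not pass the test. That is 38.3% called, against 42.2% of all genes tested, where 16.4% were called higher and 25.8% lower. Of those calls over all genes, 38.8% were thus higher, against 49.5% when the percentile was taken over probes detected on all arrays and 83.5% with spike-in scaling. The members' median log2 difference was -0.16, beside -0.12 over all genes, and their range was -1.03 to 1.69. A change of at least 2-fold passed the test in 4 members, Cbx6 and Pcgf2 upward and Sirt4 and Dnmt3a downward, while 18.5% of all genes met that rule. The arrays of the groups did not overlap for 25 members, and for 51.3% of all genes. As a set, these genes were therefore called no more often than the array as a whole, and what follows concerns single enzymes and paralogs. Scaled to the spike-ins, limma called 16 members higher and 0 lower (21 and 2 at an unadjusted p under 0.05), so only the 5 rises held under that scaling. They are Cbx6, Pcgf2, Sirt6, Ezh2 and Hdac6.

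**Figure D1:**
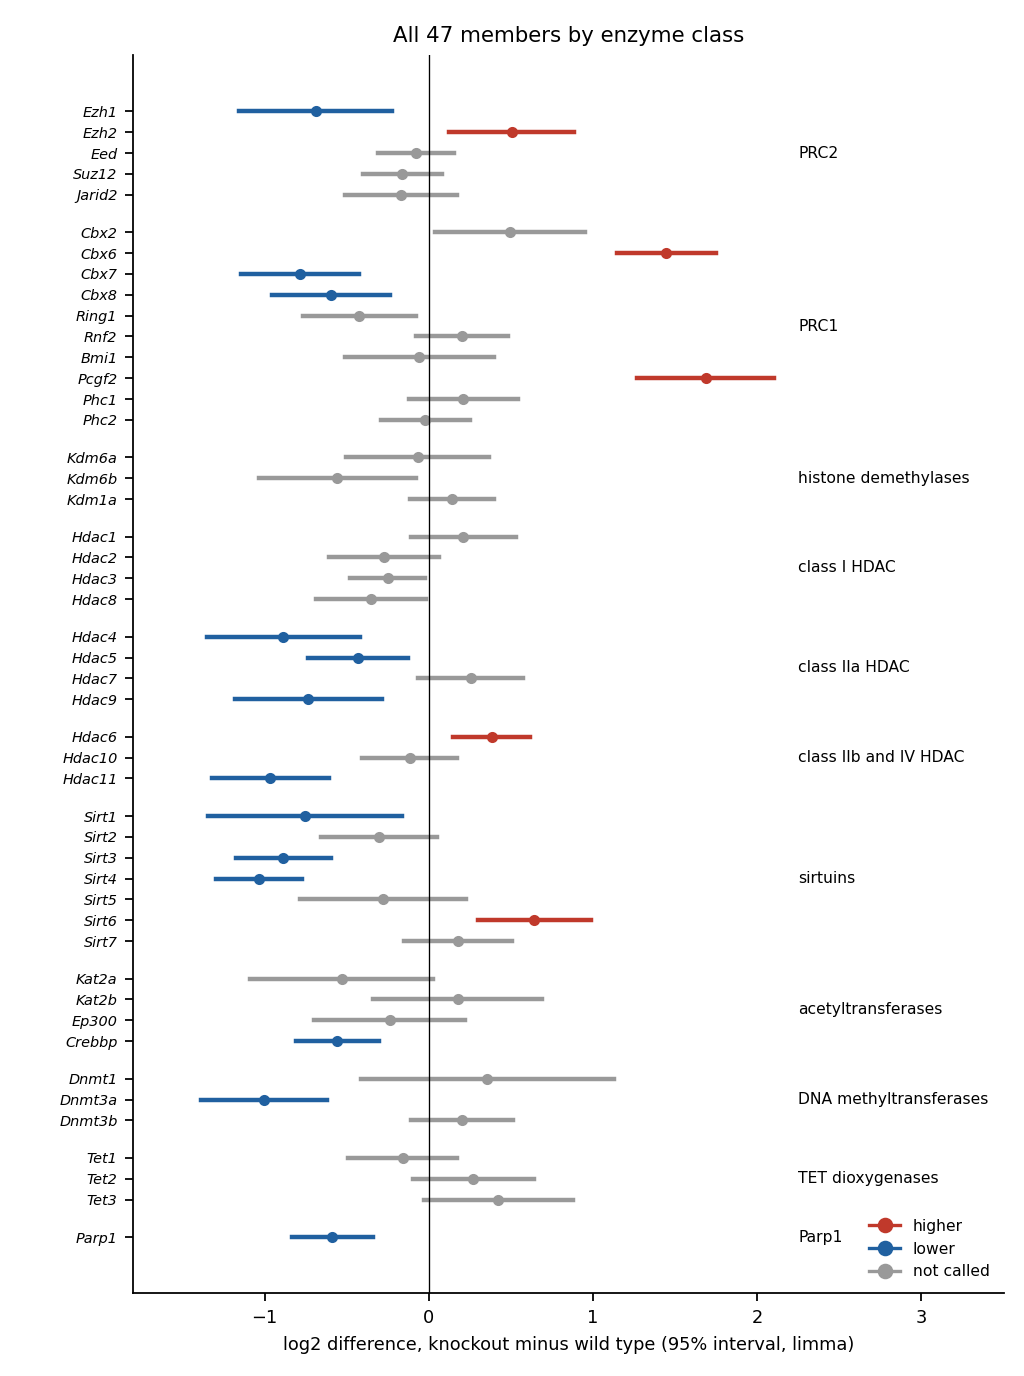
Log2 difference (knockout minus wild type, 3 and 4 arrays) of all 47 members on the horizontal axis, ordered by enzyme class, with 95% intervals from limma and each array relative to its 75th percentile. Red points rose, blue points fell and grey points did not pass the test. Pcgf2 at 1.69 and Cbx6 at 1.45 lie apart to the right, and the class IIa deacetylases Hdac4, Hdac5 and Hdac9 and the sirtuins Sirt1, Sirt3 and Sirt4 lie left of 0, where spike-in scaling called none of them and put Hdac5 at 0.14.

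In PRC2, the catalytic subunits were called in opposite directions, though both calls were close to the threshold. The Ezh1 call rests on 1 of its 3 tested probes. Ezh2, the methyltransferase of dividing cells, rose, and Ezh1, its counterpart in differentiated cells, fell. The shared core subunits Eed and Suz12 and the accessory subunit Jarid2 did not pass the test. Ezh2 had relative signals of 0.504, 0.567 and 0.602 in wild type and 0.673, 0.683, 0.964 and 0.871 in knockout. The groups did not overlap, and Mutant_187 and Mutant_188 were highest (log2 difference 0.50, SE 0.16, adjusted p = 0.041). Ezh1 had 24.2, 25.0 and 22.9 in wild type and 21.7, 13.5, 12.8 and 13.2 in knockout. Mutant_175 stayed close to the wild type arrays, and the other 3 knockout arrays lay together well below them (log2 difference -0.69, SE 0.20, adjusted p = 0.027). Eed, Suz12 and Jarid2 had log2 differences of -0.08, -0.16 and -0.17 (adjusted p 0.56, 0.24 and 0.38).

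Both PRC2 calls were close to the threshold. Ezh2 lost its call when any 1 of the 3 wild type arrays, Mutant_187 or Mutant_188 was left out (log2 difference 0.41 to 0.56, adjusted p 0.067 to 0.14). The Ezh1 call was lost when any 1 array other than Mutant_175 was left out (-0.72 to -0.61, adjusted p 0.057 to 0.089), and it strengthened to -0.87 (adjusted p = 0.00065) without Mutant_175. With spike-in scaling Ezh1 had a log2 difference of -0.12 (adjusted p = 0.70) and Ezh2 one of 1.07 (adjusted p = 0.0029).

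Ezh2 was measured by 5 probes spread along its transcript on the minus strand of chromosome 6 (mouse build mm9), 4 of them shown here because they sample separate stretches of the coding sequence. They are printed in 5′ to 3′ order.
Ezh2 probe at chr6:47506086-47506145: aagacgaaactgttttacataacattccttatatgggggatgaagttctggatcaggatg
Ezh2 probe at chr6:47502445-47504139: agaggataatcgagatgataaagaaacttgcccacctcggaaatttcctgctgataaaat
Ezh2 probe at chr6:47494464-47494523: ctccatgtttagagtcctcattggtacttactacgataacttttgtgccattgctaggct
Ezh2 probe at chr6:47482047-47482942: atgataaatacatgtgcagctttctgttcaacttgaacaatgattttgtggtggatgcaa
The probes whose coordinates span more than 60 bases cross an intron. The last of the 5 lies at chr6:47480307-47480366. In the order of their position the probes had log2 differences of 0.50, 0.35, 0.61, 1.01 and 0.85. Fitted as single probes, where 40.5% of the 34481 probes tested were called, the first and the last 2 passed the test (adjusted p 0.044, 0.0054 and 0.0084) and the others gave 0.072 and 0.055. On all 5 probes the knockout arrays lay above the wild type arrays without overlap. The probes sample the same RNA and are not independent of each other.

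Ezh1 had 3 tested probes, and its call rests on 1 of them, at chr11:101052430-101052489 on the minus strand. The other probes, at chr11:101059782-101059841 and chr11:101058722-101058781, were designed on another transcript of the gene and had log2 differences of -0.16 and -0.18 (adjusted p 0.86 and 0.49). Averaged over its probes, Ezh1 had a log2 difference of -0.34 (adjusted p = 0.24).

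The ratio of Ezh2 to Ezh1 within an array uses the Ezh1 probe that was called. In this ratio any single scaling factor of the array cancels. Its log2 value, between probes whose absolute levels cannot be compared, was -5.58 to -5.25 in wild type and -5.01 to -3.73 in knockout. The ratio thus shifted toward Ezh2 by 1.19 on the log2 scale without overlap of the groups (exact two-sided permutation test over 35 splits, p = 0.057). After quantile normalization, which is not a single factor, the shift was 0.99. Of 18 pairs of related members tested in this way, 6 had an unadjusted p of 0.029, the smallest the design allows. With 6 pairs at that minimum its adjusted value in the permutation test was 0.086. No pair could then pass after adjustment over the pairs, and the 0 calls decide nothing.

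**Figure D2:**
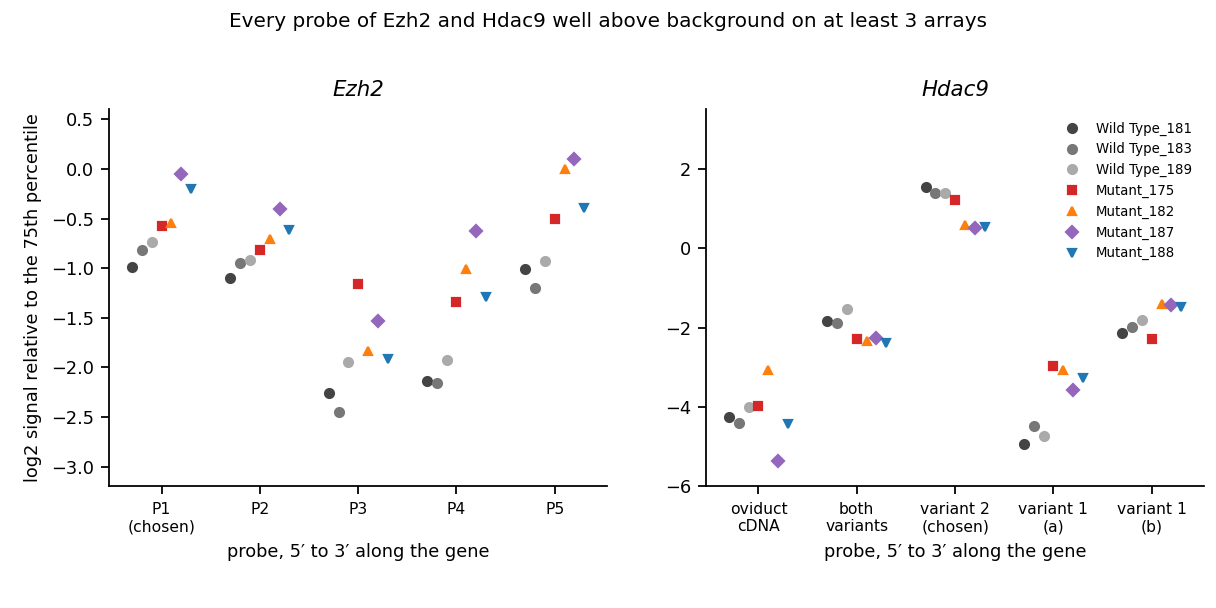
Log2 relative signal (75th percentile of the array at 0, vertical axis) for each probe of Ezh2 (left) and Hdac9 (right) that was well above background on at least 3 arrays, 1 point per array, with probes ordered 5′ to 3′ along the gene. In each of the 5 Ezh2 columns the knockout points lie above the wild type points. In Hdac9 the knockout points lie below the wild type points at the probe common to both variants and at the variant 2 probe, and above them at the first variant 1 probe.

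PRC1 members moved in both directions. The chromobox protein Cbx6 and the ring finger protein Pcgf2 (also called Mel18) rose, and the chromobox proteins Cbx7 and Cbx8 fell. The catalytic ring proteins Ring1 and Rnf2, the Pcgf2 paralog Bmi1, the polyhomeotic proteins Phc1 and Phc2, and Cbx2 did not pass the test. The median over the 10 members was 0.09.

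Cbx6 had relative signals of 5.29, 5.13 and 5.26 in wild type and 12.2, 13.9, 16.6 and 14.5 in knockout. The wild type arrays were nearly equal, and the lowest knockout array was far above them (log2 difference 1.45, SE 0.13, adjusted p = 0.00019). Its probe lies at chr15:79654337-79654396 on the minus strand, and the other Cbx6 probe, at chr15:79656576-79656635, gave 1.37 (adjusted p = 0.00023). Pcgf2 rose from 0.109, 0.145 and 0.110 to 0.304, 0.447, 0.428 and 0.390, again with Mutant_175 as the lowest knockout array and with no overlap. This was the largest rise among the members (log2 difference 1.69, SE 0.18, adjusted p = 0.00039, probe at chr11:97551160-97551219 on the minus strand). Both genes were called in all 17 alternatives run.

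Another Pcgf2 probe, chosen for display after its values were seen, lies in the coding sequence and spans an intron.
Pcgf2 probe at chr11:97553207-97553380: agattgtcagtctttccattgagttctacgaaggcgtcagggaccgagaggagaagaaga
It had a log2 difference of 2.07 and was well above background on 2 of 3 wild type and 4 of 4 knockout arrays. It thus entered the test through the knockout arrays and is no separate support for the rise. Bmi1 and Pcgf2 are alternative subunits of PRC1. Bmi1 had a log2 difference of -0.06 (SE 0.19, adjusted p = 0.83), and its ratio to Pcgf2 within the array shifted by -1.74 on the log2 scale toward Pcgf2 (exact two-sided permutation test, p = 0.057, adjusted p = 0.094).

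Cbx7, a chromobox protein that binds the PRC2 mark, fell from 3.12, 3.27 and 2.76 to 2.19, 1.64, 1.50 and 1.82. The groups did not overlap, and Mutant_175 was again nearest to wild type (log2 difference -0.78, SE 0.15, adjusted p = 0.0059). Cbx8 fell from 0.633, 0.693 and 0.607 to 0.512, 0.341, 0.429 and 0.440 (-0.59, SE 0.15, adjusted p = 0.018). Another Cbx7 probe, at chr15:79748605-79748664, gave a log2 difference of -1.89 (adjusted p = 0.00015). The Cbx8 call was lost without Wild Type_181 or Wild Type_183 (-0.61 and -0.54, adjusted p 0.055 and 0.074). Both falls were lost with spike-in scaling, where Cbx7 stood at -0.21 and Cbx8 at -0.03 (adjusted p 0.39 and 0.92).

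Cbx2, another chromobox protein, had 0.349, 0.347 and 0.386 in wild type and 0.729, 0.432, 0.461 and 0.457 in knockout. No arrays overlapped, but Mutant_175 stood far above the other knockout arrays and the test was not passed (log2 difference 0.50, SE 0.20, adjusted p = 0.079). Without Mutant_175 the difference was smaller and passed (0.32, adjusted p = 0.035). Ring1 missed the threshold at -0.42 (SE 0.15, adjusted p = 0.052) and passed it without Mutant_187 (-0.52, adjusted p = 0.017). Rnf2 stood at 0.20 and Phc1 at 0.21, and Phc2 at -0.02 (adjusted p 0.21, 0.26 and 0.90). Another Phc1 probe, designed on another transcript, had a log2 difference of -1.01 and was well above background on only 2 of 4 knockout arrays.

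Other Polycomb genes moved in a similar mix. Among 22 further subunits and partners, 4 rose and 5 fell, which is 40.9%, and their median was -0.11. The largest change was in Pcgf5, a paralog of Pcgf2 and Bmi1 found in other forms of PRC1, which rose from 16.2, 14.9 and 14.1 to 53.0, 40.8, 51.7 and 41.8 (log2 difference 1.63, SE 0.14, adjusted p = 0.00016). Auts2, a partner of such Pcgf complexes, rose by 0.96 (adjusted p = 0.0020). Scmh1, a PRC1-associated protein, and Asxl1, a partner of the H2A deubiquitinase Bap1, fell by 0.69 and 0.48 (adjusted p 0.0020 and 0.012). With spike-in scaling 9 of the 22 were higher and 0 lower.

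Of 24 developmental genes known as Polycomb targets, 13 were above background on enough arrays to be tested. In these, 5 rose and 1 fell (46.2% called), and the median log2 difference was 0.51. The homeobox gene Six2 rose by 1.88 (SE 0.30, adjusted p = 0.0025) and Hoxd8 by 1.05 (SE 0.21, adjusted p = 0.0060). The other 11, among them Isl1, Pax6 and Hoxa5, were not tested. A gene silent in wild type enters the test only if it is high in knockout. The counts, the named rises and the median are thus no estimate for the list. The summed signal of the 13, which follows the brightest of them, was 6.36 to 8.79 in wild type and 6.73 to 8.23 in knockout, so the groups overlapped. Their median log2 shift from the wild type mean did not overlap, at -0.17 to 0.12 in wild type and 0.24 to 0.58 in knockout. That median has the same limit of entry through the knockout arrays. With spike-in scaling 6 of the 13 were higher and 0 lower.

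No histone demethylase passed the limma test after adjustment, and 1 of the 3, Kdm6b, had an unadjusted p under 0.05. Kdm6a and Kdm6b remove the PRC2 mark, and Kdm1a acts on another lysine of histone H3. Kdm6b had 2.43, 2.68 and 2.93 in wild type and 1.97, 2.27, 1.27 and 1.92 in knockout. No arrays overlapped, with Mutant_187 lowest (log2 difference -0.56, SE 0.20, adjusted p = 0.062). It passed without Mutant_182 (-0.66, adjusted p = 0.046). Kdm6a stood at -0.07 (SE 0.19) and Kdm1a at 0.14 (SE 0.11), with adjusted p of 0.79 and 0.34.

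The class I deacetylases, of which Hdac1, Hdac2 and Hdac3 serve the main nuclear corepressor complexes, did not pass the limma test either. Of the 4, 2 (Hdac3 and Hdac8) had an unadjusted p under 0.05. Hdac1 stood at 0.21, Hdac2 at -0.27, Hdac3 at -0.25 and Hdac8 at -0.35 on the log2 scale (SE 0.14, 0.14, 0.10 and 0.14, adjusted p 0.25, 0.17, 0.075 and 0.085). Hdac8 passed without Mutant_187 (-0.43, adjusted p = 0.043). The 95% interval of Hdac3, -0.48 to -0.02, is the narrowest among the members not called. Of those 29 members, 8 had a 95% interval within 0.5 of 0, and for the others a larger change was not excluded by these arrays.

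Class IIa deacetylases shuttle between nucleus and cytoplasm and repress MEF2. Of these 4 members Hdac4, Hdac5 and Hdac9 fell, though none with spike-in scaling, and Hdac7 did not pass the test. Over all genes tested 25.8% were called lower, and a count among 4 genes is no result about the class. The call was kept in 16 of 17 alternatives for Hdac4, in 12 for Hdac9 and in 6 for Hdac5. Hdac4 had 1.42, 1.67 and 1.53 in wild type and 0.590, 0.940, 1.02 and 0.841 in knockout. No arrays overlapped, and Mutant_175 was lowest (log2 difference -0.89, SE 0.20, adjusted p = 0.010). All 3 tested Hdac4 probes fell, by 0.68, 0.89 and 0.92. Hdac5, which the heart's stress signals export from the nucleus, had 36.6, 40.1 and 37.0 in wild type and 33.2, 27.2, 28.1 and 24.6 in knockout. The groups did not overlap, although Mutant_175 was near the wild type arrays (-0.43, SE 0.13, adjusted p = 0.033). That call was lost when any 1 array other than Mutant_175 was left out (-0.45 to -0.36, adjusted p 0.052 to 0.12). Hdac7 stood at 0.25 (SE 0.14, adjusted p = 0.17). With spike-in scaling none of the 3 falls was called (Hdac4 -0.32, Hdac5 0.14 and Hdac9 -0.16) and Hdac7 was higher (0.82, adjusted p = 0.019).

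Hdac9, a repressor of MEF2 in muscle, is made in a long form with the catalytic domain and in a short form that ends before it, known as MITR. The chosen probe, at chr12:35056405-35056464 on the minus strand, belongs to the transcript named variant 2 in the array's design, which ends upstream of the exons that only variant 1 holds. It gave 2.90, 2.62 and 2.65 in wild type and 2.33, 1.51, 1.42 and 1.45 in knockout. Mutant_175 stood apart from the other 3 knockout arrays, between them and wild type (log2 difference -0.73, SE 0.19, adjusted p = 0.019). The call was lost without any 1 wild type array (-0.76 to -0.69, adjusted p 0.054 to 0.066). A probe common to both variants, printed here beside a probe for variant 1 to show where the designs part, also fell (-0.57, adjusted p = 0.010).
Hdac9 probe for both variants at chr12:35074257-35074316: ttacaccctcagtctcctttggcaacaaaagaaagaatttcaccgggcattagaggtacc
Hdac9 probe for variant 1 at chr12:34792084-34792143: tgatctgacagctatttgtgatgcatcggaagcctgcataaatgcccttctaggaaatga
The printed variant 1 probe was not well above background on any array. Another variant 1 probe, at chr12:34735842-34735901, rose from 0.0326, 0.0447 and 0.0376 to 0.127, 0.119, 0.0839 and 0.104, with no overlap and at low signals (log2 difference 1.50, adjusted p = 0.00077). The last variant 1 probe, at chr12:34732448-34732507, gave 0.33 (adjusted p = 0.30). In a comparison chosen after the values were seen, the first of these 2 measured variant 1 probes over the variant 2 probe within each array had a log2 ratio of -6.48 to -5.87 in wild type and -4.20 to -3.66 in knockout, a shift of 2.23 toward variant 1. With the last variant 1 probe in its place the ratio was -3.68 to -3.203 in wild type and -3.50 to -1.92 in knockout, so the groups overlapped, and the shift was 1.06. The first of these probes was very dim in wild type, and such a probe can enter the test through the knockout arrays alone. Its rise and its ratio are thus no firm measure of variant 1. Hdac9 was the only member of 35 with more than 1 tested probe whose probes were called in both directions, and averaged over its probes it stood at 0.11.

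Of the remaining zinc-dependent deacetylases, Hdac6 rose, Hdac11 fell and Hdac10 did not pass the test. Hdac6, a cytoplasmic deacetylase of tubulin, had 3.60, 3.83 and 3.65 in wild type and 5.05, 4.72, 4.93 and 4.56 in knockout. Both groups were tight and did not overlap (log2 difference 0.38, SE 0.10, adjusted p = 0.018). The call was lost without any 1 wild type array (0.36 to 0.41, adjusted p 0.054 to 0.076). Hdac11, the class IV enzyme, fell from 0.542, 0.417 and 0.467 to 0.274, 0.224, 0.208 and 0.269 (-0.96, SE 0.15, adjusted p = 0.0022). Another Hdac11 probe gave -0.99, but in knockout only 1 of 4 arrays had it well above background. With spike-in scaling the gene stood at -0.40 (adjusted p = 0.12). Hdac10 stood at -0.12 (SE 0.12, adjusted p = 0.48).

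Subunits of deacetylase corepressor complexes rose in 5 and fell in 4 of 21 genes tested (42.9%), with a median of 0.18. Sap30, a SIN3 complex subunit, rose from 0.953, 0.757 and 0.900 to 3.61, 2.78, 4.16 and 3.28 (log2 difference 1.98, SE 0.17, adjusted p = 0.00015). Suds3, another SIN3 complex subunit, went the other way, from 7.25, 5.56 and 6.45 to 2.45, 2.60, 3.26 and 2.996 (-1.18, SE 0.15, adjusted p = 0.00087). Ing1, a SIN3-associated reader of methylated histone H3, rose by 0.62 (adjusted p = 0.0027), and Mta1, a subunit of the NuRD complex, fell by 0.88 (adjusted p = 0.0017). With spike-in scaling 11 of the 21 were higher and 1 lower.

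Sirtuins use NAD to remove acetyl and other acyl groups, and the mitochondrial members Sirt3 and Sirt4 had the smallest p-values among them, both for falls that spike-in scaling did not keep. Sirt3, the main deacetylase of mitochondria, had 27.2, 24.9 and 26.5 in wild type and 16.7, 13.9, 13.2 and 13.2 in knockout. The highest knockout array lay far under the lowest wild type array (log2 difference -0.89, SE 0.12, adjusted p = 0.0014). Sirt4 fell from 2.32, 2.39 and 2.19 to 1.20, 1.06, 1.03 and 1.21 on a probe at chr5:115928163-115928222, minus strand. This was the largest fall among the members, with the arrays of each group close together (-1.03, SE 0.11, adjusted p = 0.00043). The other Sirt4 probes gave -0.84 and -0.74, both called. The other Sirt3 probe, designed on a cDNA clone upstream of the gene's chosen probe, gave -0.14 (adjusted p = 0.71), and averaged over its probes Sirt3 stood at -0.51 (adjusted p = 0.053). With spike-in scaling Sirt3 and Sirt4 stood at -0.32 and -0.46 (adjusted p 0.22 and 0.051).

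Sirt5, the mitochondrial desuccinylase, stood at -0.28 (SE 0.22, adjusted p = 0.34), with 17.9, 15.8 and 16.2 in wild type and 20.3, 12.2, 10.66 and 13.3 in knockout. Mutant_175 was above all wild type arrays and the other knockout arrays below them, and without Mutant_175 the gene was lower (-0.47, adjusted p = 0.019). Sirt2, mainly cytoplasmic, stood at -0.30 (SE 0.15, adjusted p = 0.14) and -0.41 without Mutant_175 (adjusted p = 0.021).

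Calls for the nuclear sirtuins differed in direction, and that of Sirt1 was kept in only 7 of 17 alternatives. Sirt1, which deacetylates histones and transcription factors, fell from 4.09, 4.02 and 3.87 to 3.23, 2.42, 1.48 and 2.71, with Mutant_187 far the lowest (log2 difference -0.76, SE 0.25, adjusted p = 0.046). Its call was lost without any 1 of the wild type arrays, Mutant_182 or Mutant_188 (-0.82 to -0.74, adjusted p 0.063 to 0.12), and another Sirt1 probe gave -0.19 (adjusted p = 0.51). Sirt1 was not called with spike-in scaling either (-0.19, adjusted p = 0.55). Sirt6, a chromatin deacetylase linked to genome stability, rose from 1.17, 1.17 and 1.10 to 1.58, 1.66, 2.27 and 1.73, with Mutant_187 highest. It was called in all 17 alternatives (0.64, SE 0.15, adjusted p = 0.011). Another Sirt6 probe was not well above background in wild type (0 of 3 arrays), and set against the lowest signal that was, it was at least 1.80-fold higher in knockout. That probe entered the test only through the knockout arrays and is no support for the rise. Sirt7, the nucleolar member, stood at 0.18 (SE 0.14, adjusted p = 0.34). The ratio of Sirt6 to Sirt7 shifted by 0.47 on the log2 scale (exact two-sided permutation test, p = 0.029, adjusted p = 0.086).

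**Figure D3:**
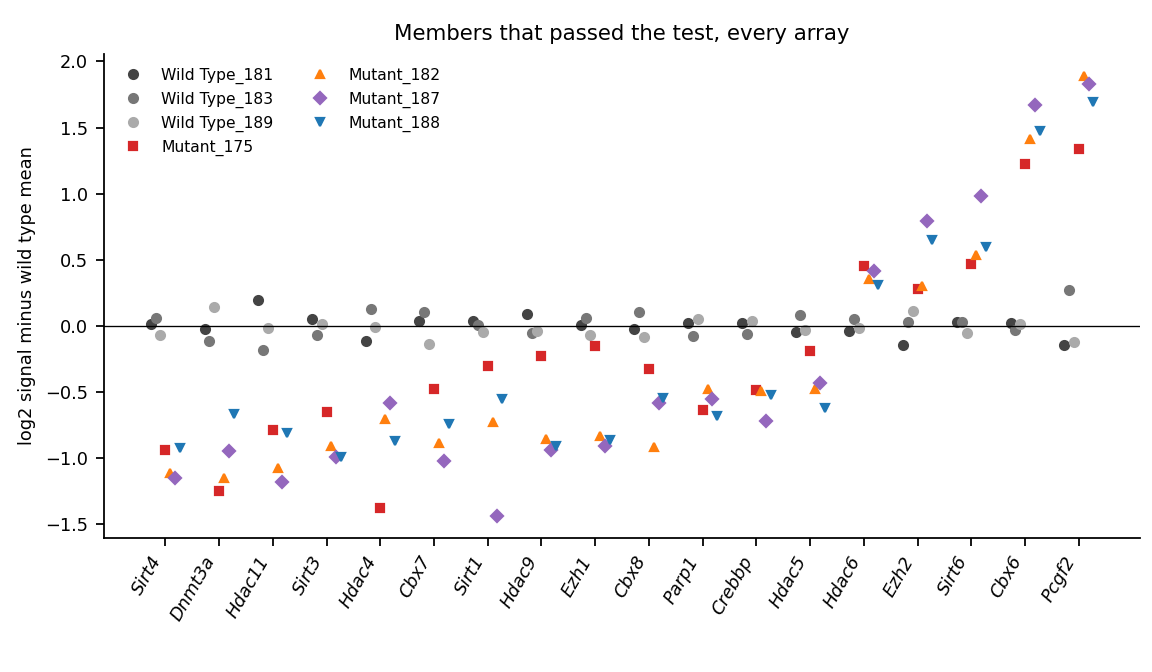
Log2 signal minus the wild type mean (vertical axis, each array relative to its 75th percentile) for the 18 members that passed the test, ordered by their difference, 1 point per array. Wild type arrays are grey and knockout arrays coloured. Mutant_187 is the knockout array farthest from wild type for 11 of the 18 members, and Mutant_175 is the nearest for 13, with Ezh1, Hdac9 and Hdac5 close to the wild type level there.

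Among acetyltransferases, Crebbp fell and Ep300, Kat2a and Kat2b did not pass the test. Crebbp and Ep300 are paralogous coactivators, and Kat2a and Kat2b (GCN5 and PCAF) are the catalytic subunits of SAGA-type complexes. Crebbp had 10.5, 9.91 and 10.6 in wild type and 7.36, 7.32, 6.27 and 7.17 in knockout. The groups did not overlap, and Mutant_187 lay below the other knockout arrays (log2 difference -0.56, SE 0.11, adjusted p = 0.0057). Ep300 stood at -0.24 (SE 0.20, adjusted p = 0.37) and Kat2b at 0.18 (SE 0.22, adjusted p = 0.55). Kat2a stood at -0.53 (SE 0.24, adjusted p = 0.11) and passed without Mutant_187 (-0.72, adjusted p = 0.016).

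The Crebbp call rests on 1 probe. The chosen probe covers a run of CAG and CAA, the triplets of a glutamine-rich stretch, with the CAG of the run in capitals below, and the other tested probe, also in the coding sequence, does not.
Crebbp probe at chr16:4084710-4084769, minus strand: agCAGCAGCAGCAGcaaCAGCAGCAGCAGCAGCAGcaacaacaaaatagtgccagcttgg
Crebbp probe at chr16:4094241-4094300, minus strand: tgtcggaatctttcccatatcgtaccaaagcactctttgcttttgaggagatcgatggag
The run in the first holds 10 CAG triplets, and the other probe has no such run. The other probe gave a log2 difference of 0.10 (SE 0.16, adjusted p = 0.64). Averaged over these probes, Crebbp stood at -0.23 (adjusted p = 0.16), and with spike-in scaling at 0.01 (adjusted p = 0.96). Another Ep300 probe, designed on another transcript, gave 0.82 (adjusted p = 0.012).

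Other acetyltransferases and readers of acetyl-lysine fell in 6 and rose in 1 of 18 genes tested (38.9%), with a median of -0.17. Kat8, which acetylates histone H4, fell from 9.62, 10.4 and 9.83 to 5.78, 5.76, 6.24 and 5.96 (log2 difference -0.75, SE 0.10, adjusted p = 0.0011). Brd9, a bromodomain subunit of a SWI/SNF complex, fell by 0.77 (SE 0.14, adjusted p = 0.0038), and the acetyl-histone reader Brd3 rose by 0.44 (SE 0.15, adjusted p = 0.0495). With spike-in scaling 6 of the 18 were higher and 0 lower.

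The DNA methyltransferases did not move together. Dnmt3a, which places new methyl groups on DNA, fell, and its paralog Dnmt3b and the maintenance enzyme Dnmt1 did not pass the test. Dnmt3a had 5.03, 4.71 and 5.64 in wild type and 2.15, 2.30, 2.65 and 3.23 in knockout. No arrays overlapped, and Mutant_175 was lowest (log2 difference -1.002, SE 0.16, adjusted p = 0.0026). The probe, at chr12:3914320-3914379 on the plus strand, lies near the far 3′ end of the transcript, and another tested Dnmt3a probe, at chr12:3908227-3908286, gave -0.27 (adjusted p = 0.21). With spike-in scaling Dnmt3a stood at -0.43 (adjusted p = 0.079). Dnmt3b stood at 0.20 (SE 0.13, adjusted p = 0.25), and its ratio to Dnmt3a rose by 1.20 on the log2 scale (exact two-sided permutation test, p = 0.029, adjusted p = 0.086).

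Dnmt1 had 0.371, 0.430 and 0.395 in wild type and 0.292, 0.569, 0.861 and 0.471 in knockout (log2 difference 0.36, SE 0.33, adjusted p = 0.41). Mutant_175 lay below every wild type array and the other 3 knockout arrays above them. The knockout arrays also differed in markers of proliferating cells. Summed over 8 such markers, the relative signal was 1.58, 1.42 and 1.71 in wild type and 3.62, 16.2, 25.6 and 10 in knockout. Of these 8 genes 5 rose and 0 fell, among them Birc5 and Ccnb1 (log2 differences 3.17 and 3.42, adjusted p 0.00087 and 0.017). Mutant_187 was highest for Ezh2, Dnmt1 and the summed markers, and Mutant_175 was lowest of the knockout arrays for all of them. That order is not particular to these genes. Mutant_187 was farthest from wild type for 11 of the 18 called members, and Mutant_175 was nearest for 13. Mutant_182 was above Mutant_188 for Dnmt1 and the summed markers, but below it for Ezh2. Whether dividing cells account for the Ezh2 or Dnmt1 values was not tested.

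Uhrf1, the partner that brings Dnmt1 to replicating DNA, rose from 0.262, 0.207 and 0.293 to 0.582, 2.02, 3.48 and 1.71 (log2 difference 2.70, SE 0.54, adjusted p = 0.0063). It had the same order over the knockout arrays as the summed markers. Among 12 readers and partners of DNA methylation, 2 rose and 3 fell (41.7%), with a median of -0.18. Tdg, a glycosylase that removes oxidised methylcytosine, rose by 0.74 (adjusted p = 0.0025), and Uhrf2 fell by 0.48 (adjusted p = 0.021). Apobec2, a muscle protein of the cytidine deaminase family, fell from 142, 149 and 146 to 23.9, 31.0, 22.9 and 35.9 (-2.38, SE 0.18, adjusted p = 9.3e-05). With spike-in scaling 4 of the 12 were higher and 1 lower.

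**Figure D4:**
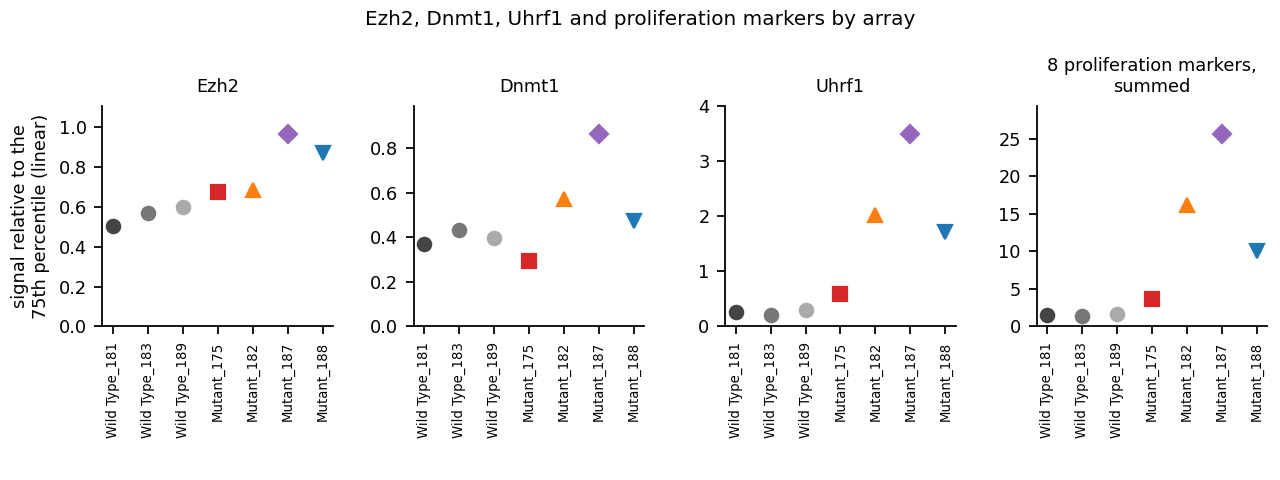
Relative signal (1 is the 75th percentile of the array, linear scale from 0) in each of the 7 arrays for Ezh2, Dnmt1, Uhrf1 and the sum of 8 proliferation markers. In all 4 panels Mutant_187 is highest. Mutant_175 is the lowest knockout array, at 0.673 for Ezh2, 0.292 for Dnmt1, 0.582 for Uhrf1 and 3.62 for the summed markers.

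The TET dioxygenases, which oxidise methylcytosine, did not pass the limma test, and 0 of 3 had an unadjusted p under 0.05. Tet1, Tet2 and Tet3 stood at -0.16, 0.27 and 0.42 (SE 0.14, 0.16 and 0.20, adjusted p 0.40, 0.20 and 0.12). Tet3 had 0.529, 0.517 and 0.462 in wild type and 0.963, 0.5995, 0.592 and 0.603 in knockout. No arrays overlapped, and Mutant_175 stood far above the rest. Without it the difference was 0.25 (adjusted p = 0.077). Another Tet2 probe rose (0.76, adjusted p = 0.0024), and averaged over its probes Tet2 was higher (0.50, adjusted p = 0.011). The ratio of Tet1 to Tet3 shifted by -0.58 on the log2 scale (exact two-sided permutation test, p = 0.029, adjusted p = 0.086).

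Parp1, which attaches ADP-ribose chains to proteins at DNA breaks and in chromatin, fell from 2.33, 2.18 and 2.39 to 1.48, 1.65, 1.57 and 1.44. Both groups were tight and did not overlap (log2 difference -0.59, SE 0.11, adjusted p = 0.0040), and with spike-in scaling the value was -0.02 (adjusted p = 0.95). Of 15 other genes of this family, 5 rose and 2 fell (46.7%), with a median of 0.04. Parp3, a DNA repair member, rose from 1.19, 1.22 and 1.37 to 2.68, 2.92, 2.64 and 2.58 (1.10, SE 0.11, adjusted p = 0.00029). Parp16, of the endoplasmic reticulum, rose by 2.01 (SE 0.25, adjusted p = 0.00078), while the repair enzyme Parp2 fell by 0.47 (adjusted p = 0.020) and Parp6 by 0.36 (adjusted p = 0.025). With spike-in scaling 8 of the 15 were higher and 0 lower.

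As a group, the promoters of the members differed from all promoters in features that the choice of genes did not use. RefSeq promoters (build GRCm38.p6), here the 250 bases before the transcription start, matched 42 of the 47 members with 56 promoters. Their median GC content was 62.6%, against 52.4% over 32851 promoters of all genes, and their median number of CpG dinucleotides was 17 against 6. Single member promoters ran from 40.8% to 84.0% GC, so these features were not common to all of them. The Sp1 motif GGGCGG was found on either strand in 64.3% of member promoters and 32.7% of all promoters. The E-box CACGTG occurred in 9 of 56 member promoters (16.1%) and 6.02% of all. These were the promoters of the called genes Cbx6, Pcgf2, Cbx8, Dnmt3a, Parp1 and Sirt1, and of Bmi1, Kdm6a and Phc2. The E2F motif TTTCCCGC was found in 2 member promoters, of Sirt4 and Suz12 (3.57%, against 0.895% of all). The shares of the Sp1 motif and the E-box were read from promoters that also differ from the rest in GC content, and no set of equal GC content was compared. Nor was the comparison limited to genes detected on these arrays, as all members were.

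The binding motif of MEF2, the muscle factor that class IIa deacetylases repress, was found in 1 member promoter, that of the class IIa gene Hdac5 itself (1.79%, against 0.103% of all promoters, either strand). The Hdac5 promoter is shown with the promoters of the genes with the largest rises, Cbx6 and Pcgf2, which hold the E-box. Capitals mark the E-box, or in Hdac5 the MEF2 motif, the 10-letter motif searched, as it reads on the other strand. All 3 genes lie on the minus strand, and the sequences run 5′ to 3′ toward the start of transcription. A match is a description of these letters and no evidence of binding.
Cbx6 promoter at chr15:79834334-79834583: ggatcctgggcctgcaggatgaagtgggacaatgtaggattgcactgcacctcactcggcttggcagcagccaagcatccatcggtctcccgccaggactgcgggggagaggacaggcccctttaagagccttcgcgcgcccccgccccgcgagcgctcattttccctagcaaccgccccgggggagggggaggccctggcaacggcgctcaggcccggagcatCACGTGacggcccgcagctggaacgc
Pcgf2 promoter at chr11:97699649-97699898: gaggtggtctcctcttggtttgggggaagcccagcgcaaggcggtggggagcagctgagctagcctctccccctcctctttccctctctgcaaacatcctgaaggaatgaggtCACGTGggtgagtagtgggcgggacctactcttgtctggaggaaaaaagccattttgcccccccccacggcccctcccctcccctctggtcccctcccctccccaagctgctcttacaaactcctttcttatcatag
Hdac5 promoter at chr11:102230173-102230422: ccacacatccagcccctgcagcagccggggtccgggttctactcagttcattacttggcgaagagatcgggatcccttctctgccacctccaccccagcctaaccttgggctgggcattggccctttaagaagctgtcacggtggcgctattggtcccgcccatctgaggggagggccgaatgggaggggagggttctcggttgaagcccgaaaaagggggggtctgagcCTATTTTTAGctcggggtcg

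Markers of cell types differed between the groups in the tissue that all members were measured in. The summed relative signal of 8 cardiomyocyte markers was 3877 to 4271 in wild type and 2014 to 2625 in knockout, with 6 of 8 lower. Fibroblast markers went from 301 to 331 up to 570 to 786 (7 of 8 higher), smooth muscle and pericyte markers from 102 to 120 up to 444 to 536 (3 higher and 1 lower of 8), and macrophage markers from 38.7 to 41.3 up to 50.6 to 88.9 (6 higher and 1 lower of 8). Endothelial markers gave 61.9 to 64.3 and 60.5 to 82.4 (1 higher and 2 lower of 8). Lymphocyte markers gave 6.64 to 8.98 and 9.12 to 13.6 with 2 of 5 tested higher, and Cd8a and Cd79a were not well above background on any array. Neutrophil markers gave 45.0 to 49.8 and 34.7 to 49.1, with 1 of 5 tested higher and 1 lower. A sum follows the brightest markers of its list. The median log2 shift from the wild type mean differed from it in 3 lists. For smooth muscle and pericyte markers it was -0.088 to 0.030 in wild type and 0.056 (Mutant_175) to 0.93 in knockout. Endothelial markers gave -0.047 to 0.022 and -0.41 to -0.22, and neutrophil markers -0.22 to 0.44 and -0.23 to 1.08. In the other lists of this paragraph medians and sums went the same way. The part of these marker differences in the members' values was not tested.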

How the data were processed

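Per the file headers, spots were read by Agilent Feature Extraction 10.7.3.1 with probe positions on build mm9, and the deposited processed signal is a background-subtracted, spatially detrended intensity on a linear scale that is not normalized between arrays. Flags for well above background, saturated (0 spots) and outlying spots (82 to 146 of 59305 per array, left out) were used as deposited, per the file headers. The authors' deposited value table was an alternative: 99.6% of its values differed from the scanner intensity by under 0.01 (log2), and its column medians were 47.2, 45.6 and 50.4 in wild type and 65.0, 82.6, 80.3 and 60.8 in knockout arrays, so it is unscaled and uncentred.

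Spots of a probe were averaged, and log2 signal minus the array's 75th percentile was used, which removes any difference in total messenger RNA. Genes entered the fit if their brightest probe exceeded background by the scanner's flag on at least 3 arrays. The fit used limma 3.58.1 (lmFit, eBayes; R 4.3.3, with data.table version 1.17.8), group as its only term and all 7 arrays. P-values were adjusted over all genes by Benjamini-Hochberg, and 0.05 was the threshold. Replicate numbers are shared by no samples, so nothing was paired. Ratios of 18 related pairs were compared by exact permutation. Figures used matplotlib 3.10.9 and tables pandas 2.3.3. Tested on 10 simulations of 22802 genes with 200 changed, the fit recovered 2.24%, 38.8% and 82.4% of changes of 0.5, 1 and 2 on the log2 scale, and 4.83% of calls were false. Small changes were thus often missed in the simulations. In these data a far larger share of genes was called (42.2%). The adjustment is then less strict, so these rates do not carry over.

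The members, lists, pairs and alternatives were chosen with earlier results of these data known. Every member is accounted for, members that passed the test with the value of each array. From each pathway list the called genes with the 2 smallest p-values in each direction are named, or fewer where fewer passed, and 1 gene that this rule names is not reported here. Gene names are those of the array design. Samples of the series beyond these 7 were not analysed here.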

Additional observations from a re-analysis of the deposited data

Results flagged for a closer look

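In 5 of the 47 members, 1 knockout array lay apart from the other 3 by more than Dixon's 95% critical value for the gap over the range, which chance exceeds in about 1 of 20 groups. Mutant_175 was the highest knockout array for Ezh1, at 21.7 against 12.8 to 13.5 in the other 3, for Cbx2, at 0.729 against 0.432 to 0.461, for Hdac9, at 2.33 against 1.42 to 1.51, and for Tet3, at 0.963 against 0.592 to 0.603. For Ezh1 and Hdac9 that array was the nearest to wild type, and for Cbx2 and Tet3 it was the farthest. Mutant_187 was the lowest for Crebbp, at 6.27 against 7.17 to 7.36.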

How the results depend on the processing

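Scaling mattered most. Scaled to spike-ins, 8600 genes were higher and 1695 lower, with 16 members higher and 0 lower. Calls were higher in 38.8% of cases with the main scaling, 49.5% with a percentile taken over the probes detected on all 7 arrays, 45.0% after quantile normalization, 45.5% after normexp with it, and 83.5% with spike-ins. Averaging over a gene's probes left 7 members lower. Without 1 array in turn, 2634 to 4514 genes were higher and 4072 to 6736 lower, and 3 to 6 members higher and 8 to 15 lower; the lowest member counts came without a wild type array (3 higher and 8 or 9 lower). Without Mutant_175 and Mutant_187 together, 6 members were higher and 18 lower. Of the 18 calls, 17 were kept with normexp, 16 with the other percentile, 15 with quantile normalization, 14 with dim probes kept, 12 with probes averaged and 5 with spike-ins. The value table, the filter over all arrays and the trended robust prior kept all 18.

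Some members changed sign. With the other percentile Eed stood at 0.038, Bmi1 at 0.058, Phc2 at 0.095 and Kdm6a at 0.047. After quantile normalization Eed, Bmi1 and Phc2 stood at 0.057, 0.074 and 0.15, and after normexp at 0.068, 0.086 and 0.16. With spike-ins Eed stood at 0.49, Suz12 0.41, Jarid2 0.40, Ring1 0.15, Bmi1 0.51, Phc2 0.55, Kdm6a 0.50, Kdm6b 0.014, Hdac2 0.30, Hdac3 0.32, Hdac8 0.22, Hdac5 0.14, Hdac10 0.45, Sirt2 0.27, Sirt5 0.29, Kat2a 0.039, Ep300 0.33, Crebbp 0.013 and Tet1 0.41. With the mean over probes Phc1 stood at -0.40, Hdac9 at 0.11, Sirt7 at -0.040 and Ep300 at 0.13. With 1 array left out, Phc2 ranged from -0.070 (without Wild Type_181) to 0.057 (without Wild Type_183) and was 0.021 without Mutant_188, Bmi1 ranged from -0.21 (without Mutant_175) to 0.062 (without Mutant_187), and Kdm6a from -0.19 to 0.080 (likewise). Of these, only Crebbp, Hdac5 and Hdac9 had been called. The 18 pair ratios gave 0 calls after adjustment with all 7 arrays, where the smallest possible p is too large for that count to decide anything. With an array left out the test cannot reach 0.05 and was not counted. No paired analysis was possible because no replicate number is shared between the groups. The cause of these shifts was not tested, and 7 arrays limit the precision of every value.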
